A study of Mus musculus with 8 samples.

Results

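Open regions that were 1 peak in 1 list and 2 or more peaks in the other were examined in MIN6 cells with and without a Klf4 plasmid. On chromosomes 1 to 19 and X, an empty vector peak overlapped by at least 2 Klf4 peaks was called split, and a Klf4 peak overlapped by at least 2 empty vector peaks was called fused, with 1 bp counting as overlap. There were 997 such regions among the 228548 peaks of both lists: 524 split regions among 100049 empty vector peaks (0.524%) and 473 fused regions among 128499 Klf4 peaks (0.368%). The members were chosen by the measured peak boundaries, that is by how the peaks of both lists overlap, so their number, width, gaps and strength are given as descriptions with no test. MIN6 is an established mouse insulinoma line, labelled as wild type, and is used to study the insulin-producing beta cell. All cells were transfected with Lipofectamine 3000 for 48 hours, the controls with pcDNA 3 and the others with a plasmid labelled pGloMyc-Klf4, in 4 biological replicates per plasmid. The labels name different plasmids, so an effect of the vector and one of Klf4 cannot be told apart. Each plasmid has 1 list of ATAC-seq peaks, named as merged without saying over which libraries, so no value below has a spread between libraries, and read depth is unknown from the lists.

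ATAC-seq uses a transposase that inserts adapters where DNA is free of nucleosomes, and runs of such insertions are called as peaks. In broad peak calling, enriched stretches that lie close together are reported as 1 peak, so a stretch of open chromatin can be given as 1 wide peak or as several narrower ones with a gap between them. Klf4 is a zinc finger transcription factor that binds GC-rich and CACCC-type sites and is best known from epithelial differentiation and from reprogramming to pluripotency. The labelled cell type was checked at marker genes: all 9 beta cell markers (Ins1, Ins2 and Pdx1 among them) had a peak in the gene or within 10 kb in both lists, against 1 of 3 acinar markers. Of 4 alpha cell markers, 3 had a control peak and 4 a Klf4 peak, and both delta cell markers had one in either list. None of these markers had a split or a fused region.

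The clearest cases at genes were those where the gap between the fragments held the annotated first base of a coding gene, because there the first transcribed base was inside a peak in 1 list and outside it in the other. For the 3 strongest such regions of each class, by the −log10 q of the joined peak, the promoter (250 bases before and 50 bases from the first transcribed base on) is shown 5′ to 3′ on the strand of the gene, from RefSeq on GRCm38.p6. Capitals mark CACCC or GGGCGG on either strand, and matches may share letters.
Csnk1g2 (split, chr10:80622530-80622829, + strand): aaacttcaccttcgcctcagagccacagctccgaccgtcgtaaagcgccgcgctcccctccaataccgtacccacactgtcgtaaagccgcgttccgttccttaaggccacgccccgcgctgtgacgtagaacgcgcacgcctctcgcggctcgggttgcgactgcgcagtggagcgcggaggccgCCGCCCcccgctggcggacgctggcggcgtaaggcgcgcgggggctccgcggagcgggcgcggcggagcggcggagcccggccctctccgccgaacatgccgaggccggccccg
Lrp8 (split, chr4:107802635-107802934, + strand): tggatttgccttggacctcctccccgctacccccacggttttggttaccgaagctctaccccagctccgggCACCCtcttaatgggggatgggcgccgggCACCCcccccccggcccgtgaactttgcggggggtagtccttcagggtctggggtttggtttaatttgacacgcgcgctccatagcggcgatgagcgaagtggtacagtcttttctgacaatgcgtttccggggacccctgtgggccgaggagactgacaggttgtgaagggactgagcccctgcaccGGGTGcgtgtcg
Maz, the upstream of its 2 listed starts (split, chr7:127026956-127027255, − strand): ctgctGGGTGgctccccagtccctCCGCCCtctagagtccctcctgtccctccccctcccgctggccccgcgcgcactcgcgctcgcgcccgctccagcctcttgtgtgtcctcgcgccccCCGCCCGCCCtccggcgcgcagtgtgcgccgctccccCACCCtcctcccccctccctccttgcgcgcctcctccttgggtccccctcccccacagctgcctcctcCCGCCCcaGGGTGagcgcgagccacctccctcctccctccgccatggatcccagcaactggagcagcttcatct
Apoa2 (fused, chr1:171221314-171221613, + strand): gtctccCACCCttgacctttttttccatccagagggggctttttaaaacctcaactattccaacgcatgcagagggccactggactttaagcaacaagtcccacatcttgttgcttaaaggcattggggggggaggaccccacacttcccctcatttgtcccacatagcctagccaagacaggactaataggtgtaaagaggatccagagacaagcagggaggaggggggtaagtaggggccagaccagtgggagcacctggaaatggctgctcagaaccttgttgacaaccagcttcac
Prph (fused, chr15:99054924-99055223, + strand): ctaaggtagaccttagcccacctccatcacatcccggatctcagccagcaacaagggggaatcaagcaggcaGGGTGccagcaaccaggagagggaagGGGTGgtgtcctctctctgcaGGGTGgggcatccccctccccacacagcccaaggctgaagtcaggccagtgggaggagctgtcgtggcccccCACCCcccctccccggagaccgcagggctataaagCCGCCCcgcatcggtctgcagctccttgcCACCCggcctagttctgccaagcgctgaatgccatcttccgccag
Yy1 (fused, chr12:108793047-108793346, + strand): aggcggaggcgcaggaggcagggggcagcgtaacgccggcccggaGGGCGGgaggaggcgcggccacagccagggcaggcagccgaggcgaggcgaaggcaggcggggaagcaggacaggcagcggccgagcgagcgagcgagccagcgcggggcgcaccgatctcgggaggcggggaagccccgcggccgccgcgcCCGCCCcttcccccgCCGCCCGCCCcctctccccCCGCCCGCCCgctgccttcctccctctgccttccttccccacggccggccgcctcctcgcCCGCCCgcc

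The 6 promoters were unlike in base composition, from 52.3% G and C at Apoa2 to 81% at Yy1. CACCC matched 3 times at Lrp8 and at this Maz start, 5 times at Prph, once at Apoa2 and not at Csnk1g2 or Yy1. GGGCGG matched 5 times at Yy1, 3 times at Maz, once each at Csnk1g2 and Prph, and not at Lrp8 or Apoa2. At Lrp8, Apoa2 and Prph the whole window shown lay in the gap, and at Csnk1g2, Maz and Yy1 a part of it lay in a fragment. Matches of a motif were counted without overlap with each other. A match is a run of letters and not a measured binding site.

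At Csnk1g2, which encodes a casein kinase 1 isoform, the empty vector peak chr10:80621885-80623941 had a fold enrichment over local background of 7.22 and a −log10 q of 317, both values of the authors' peak caller. The Klf4 list held fragments of 809 bp (fold enrichment 9.83, −log10 q 362) and 556 bp (1.68 and 5.10) with 673 bp between them, and the first base of Csnk1g2 lay 31 bp into the gap. One strong and one weak fragment therefore flanked the start. At Lrp8, a receptor for reelin and apolipoprotein E, the empty vector peak chr4:107801540-107804106 (2567 bp, −log10 q 98.1) faced Klf4 fragments of 654 bp (−log10 q 47.7) and 1171 bp (167), and the start lay 134 bp from the end of the 866 bp gap. At Maz, a zinc finger transcription factor gene, the 2939 bp empty vector peak chr7:127024943-127027881 (−log10 q 80.8) faced fragments of 1459 bp (22.4) and 978 bp (81.5), and both listed starts lay in a gap of 663 bp, the smallest gap in the Klf4 list. Bahd1, a heterochromatin factor gene, and Vav2, a guanine nucleotide exchange factor gene, had starts in gaps of 687 and 748 bp, in split peaks with −log10 q 64.1 and 38.0.

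The fused regions with a start in the gap showed the reverse arrangement. At Apoa2, which encodes an apolipoprotein, the Klf4 peak chr1:171220896-171222958 (2063 bp, fold enrichment 4.95, −log10 q 101) joined empty vector fragments of 358 bp (−log10 q 16.4) and 835 bp (251) across 864 bp. At Prph, the gene of the intermediate filament protein peripherin, the Klf4 peak chr15:99053064-99056531 (3468 bp, −log10 q 97.3) joined fragments of 942 bp (54.5) and 1152 bp (32.1) across 1401 bp. This was the widest gap of the 5 strongest fused regions of this kind. At Yy1, a widely expressed zinc finger transcription factor gene, the Klf4 peak chr12:108792199-108794758 (2560 bp, −log10 q 86.4) joined fragments of 1019 bp (190) and 648 bp (21.1) across 880 bp, with the start 82 bp into the gap. Thbs3 and Tab2, a thrombospondin gene and the gene of a TAK1-binding adaptor, followed with gaps of 916 and 684 bp and −log10 q of 61.3 and 54.3. In each of these examples the list with 2 fragments had a called stretch on either side of the start, and the other list also called the bases between.

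Across all members, a start in the gap was the less common case. The 75 split regions that held a listed coding start held 93 starts, of which 71 lay in a Klf4 fragment, 20 in the gap (21.5%, 95% Wilson interval 14.4 to 30.9%) and 2 outside the outermost fragments. The gap made up 32.2% of the bases of these regions. The 86 fused regions with a start held 106 starts, of which 74 lay in an empty vector fragment, 22 in the gap (20.8%, interval 14.1 to 29.4%) and 10 outside the fragments, while the gap made up 34.6% of the bases. In both classes the interval lay below the share of bases, so starts lay in gaps less often than bases did. These intervals cover counting error over starts, and starts of 1 gene are not independent.

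Promoters of split and fused regions had overlapping intervals for both motifs. The median share of G and C was 62% over the 93 promoters in split regions and 64.8% over the 106 in fused regions, beside 65.7% and 65.3% for promoters in peaks of at least 1500 bp that met exactly 1 peak of the other list, in the empty vector and Klf4 lists. CACCC was present in 61.3% of split promoters (interval 51.1 to 70.6%) and 69.8% of fused promoters (60.5 to 77.7%), against 67.2% and 69.7% of promoters in those wide peaks and 59.8% of all 21045 listed coding promoters. GGGCGG was present in 60.2% (50.1 to 69.6%) and 66% (56.6 to 74.4%), against 73.1% and 72.1% in the wide peaks and 46.7% of all. The split share of GGGCGG thus had an interval below the share in wide empty vector peaks, and the other shares had intervals that included theirs.

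Nearly every member fell into exactly 2 pieces. There were 519 split regions with 2 fragments and 5 with 3, and 472 fused regions with 2 and 1 with 3. The 1053 Klf4 fragments of the split regions had a median width of 458 bp, and the 947 empty vector fragments of the fused regions had one of 476 bp. The widest split region with 3 fragments lay at Nfix, which encodes a nuclear factor I transcription factor, at chr8:84770416-84775130 (4715 bp, fold enrichment 2.63, −log10 q 13.3). Its Klf4 fragments were 629, 512 and 2015 bp wide with gaps of 1169 and 706 bp, and 2 listed Nfix starts lay in the second gap. The others with 3 fragments were at Prrc2b (4068 bp, fragments of 1653, 398 and 462 bp), 43368 bp from Vegfa, the vascular endothelial growth factor gene (2362 bp, fragments of 824, 306 and 247 bp), in Dop1b (2772 bp) and far from any coding gene on chromosome 18, 396618 bp from Fbxo15 (2713 bp). The fused region with 3 fragments lay 8925 bp from Sstr5, a somatostatin receptor gene whose product restrains insulin secretion, at chr17:25506213-25509397 (3185 bp, fold enrichment 2.97, −log10 q 13.6). Its empty vector fragments measured 529, 691 and 451 bp, with −log10 q of 28.1, 15.7 and 2.31.

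**Figure D1:**
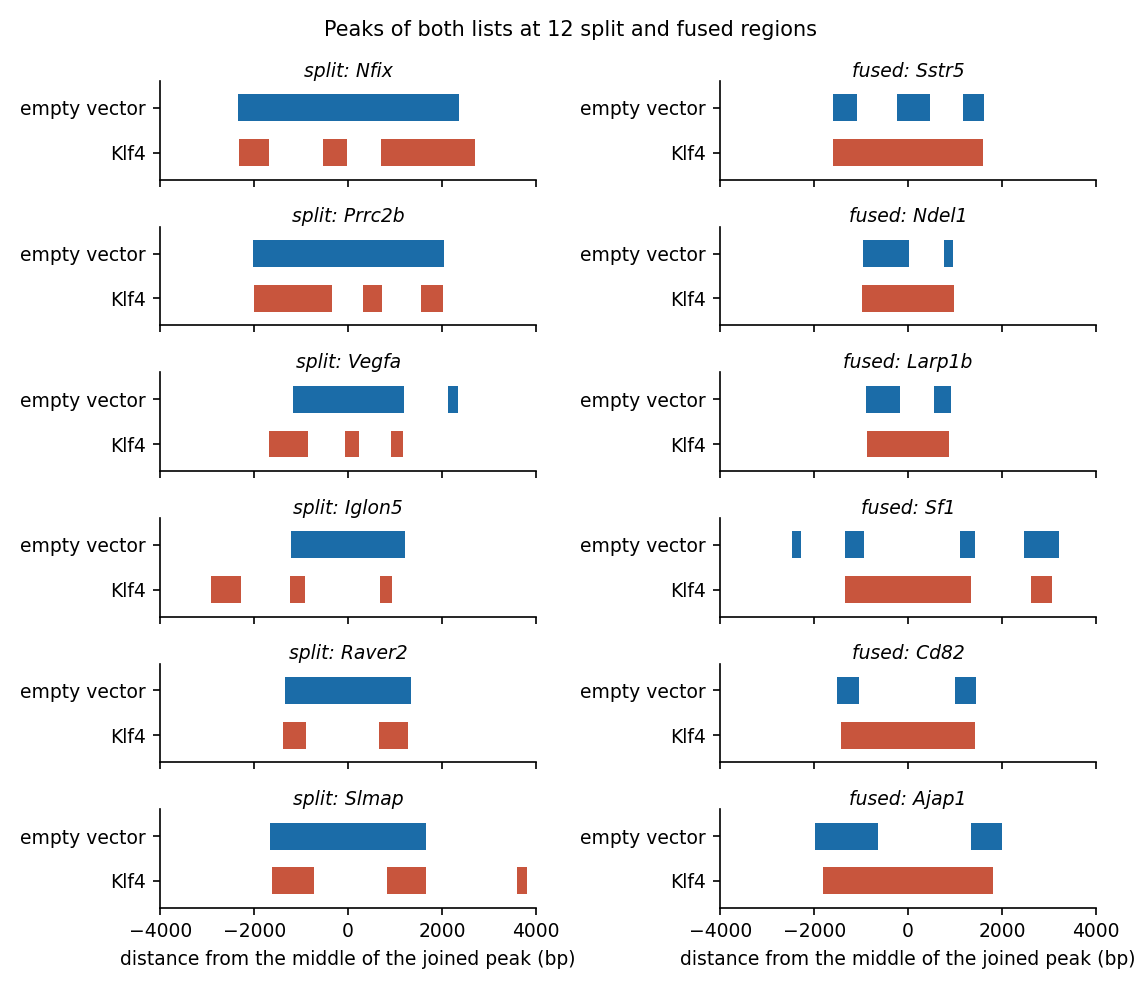
Peaks of both lists at 6 split (left) and 6 fused (right) regions, named by the nearest coding gene, the first 3 of each column by number of fragments (ties by −log10 q) and the last 3 by widest gap. The horizontal axis is the distance from the middle of the joined peak in bp, and bars are peaks of the empty vector (upper) and Klf4 (lower) lists; outer edges mostly lie close together, and the gaps reach 1594 bp at Iglon5 and 2057 bp at Sf1.

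Members were wide peaks. Split regions had a median width of 1770.5 bp (quartiles 1511 and 2213 bp) against 617 bp for empty vector peaks that met exactly 1 Klf4 peak, and fused regions had one of 1945 bp (1596 and 2475 bp) against 627 bp for Klf4 peaks that met exactly 1 empty vector peak. A region has to hold a gap to be a member, so a large width follows from the definition. Of peaks under 1000 bp, 1 of 82001 with the empty vector was split and 2 of 104161 with Klf4 were fused. The share rose with width, to 5.67% (4.99 to 6.44%) split and 2.92% (2.51 to 3.40%) fused at 1500 to 1999 bp, and to 9.71% (8.30 to 11.3%) and 7.10% (6.13 to 8.22%) at 2000 to 2999 bp. At 3000 bp or more, 31 of 140 empty vector peaks were split (22.1%, 16.1 to 29.7%) and 54 of 249 Klf4 peaks were fused (21.7%, 17.0 to 27.2%). The widest peaks were thus split and fused at like shares, and those from 1000 to 2999 bp were more often split than fused. The Klf4 list is the longer one, and with it limited to the number of empty vector peaks there were 335 split and 439 fused regions over all widths, in the opposite order.

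**Figure D2:**
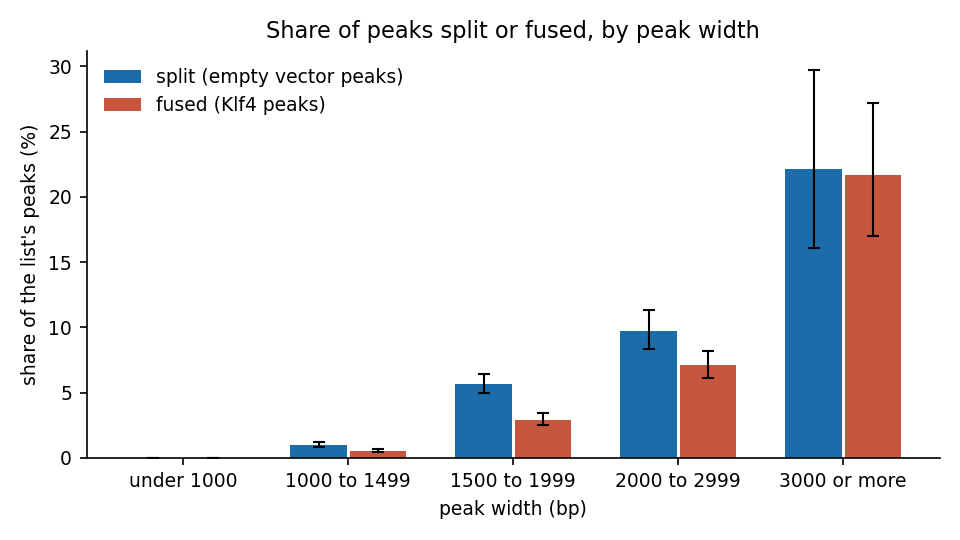
Share of empty vector peaks that were split and of Klf4 peaks that were fused (vertical axis, %) by peak width in bp, with 95% Wilson intervals as error bars. The share climbs in both lists from near 0 under 1000 bp to 22.1% and 21.7% at 3000 bp or more.

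Among peaks of like width from 1000 bp on, members had the lower median −log10 q in each class. Members were chosen for holding a stretch that the other list left uncalled, and the part of that rule in their strength was not tested. At 1500 to 1999 bp, the medians over split regions were 4.18 for fold enrichment and 11.3 for −log10 q, while empty vector peaks that met 1 Klf4 peak had 4.94 and 38.2. Fused regions of this width had 3.93 and 10.8, against 4.61 and 27.5. At 2000 to 2999 bp the −log10 q was 13.3 against 36.1 for split and 12.7 against 24.4 for fused regions. Fold enrichment did not follow at 3000 bp or more in the empty vector list, where split regions had 3.38 and the others 3.21. Taking all peaks of at least 1500 bp, 18.7% of those with −log10 q from 2 to 5 were split, 12.2% of those from 10 to 20 and 2.16% of those at 50 or more. The fused shares in these classes were 7.26%, 6.78% and 1.83%. The few wide peaks below 2 did not follow this decline, with 1 of 34 split (2.94%, 0.521 to 14.9%) and 1 of 28 fused (3.57%, 0.633 to 17.7%). From 5 to 10 the shares were 15.9% split and 6.49% fused, so the fused share changed little from 2 to 20. Wide peaks of every strength were mostly not members, and members were least common among those at 50 or more.

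The gaps were short and close to the joining limit of each list. No neighbouring Klf4 peaks lay nearer than 663 bp and no neighbouring empty vector peaks nearer than 675 bp, so shorter gaps cannot occur. The 529 gaps in split regions had a median of 748 bp (95% interval of the median 738 to 761 bp) and a maximum of 1594 bp, and 89.4% of them were at most 1000 bp. The 474 gaps in fused regions had a median of 808.5 bp (795 to 835 bp) and a maximum of 2057 bp, and 75.3% were at most 1000 bp. Gaps of up to 700 bp made up 26.8% of those in split and 11.6% of those in fused regions. This class spans 663 to 700 bp for split but only 675 to 700 bp for fused regions, so part of that difference is built in. Over a whole list, neighbours were a median of 6814 bp apart in the Klf4 cells and 9813 bp apart in the controls. Gaps in split regions were thus nearer to the limit than gaps in fused regions.

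**Figure D3:**
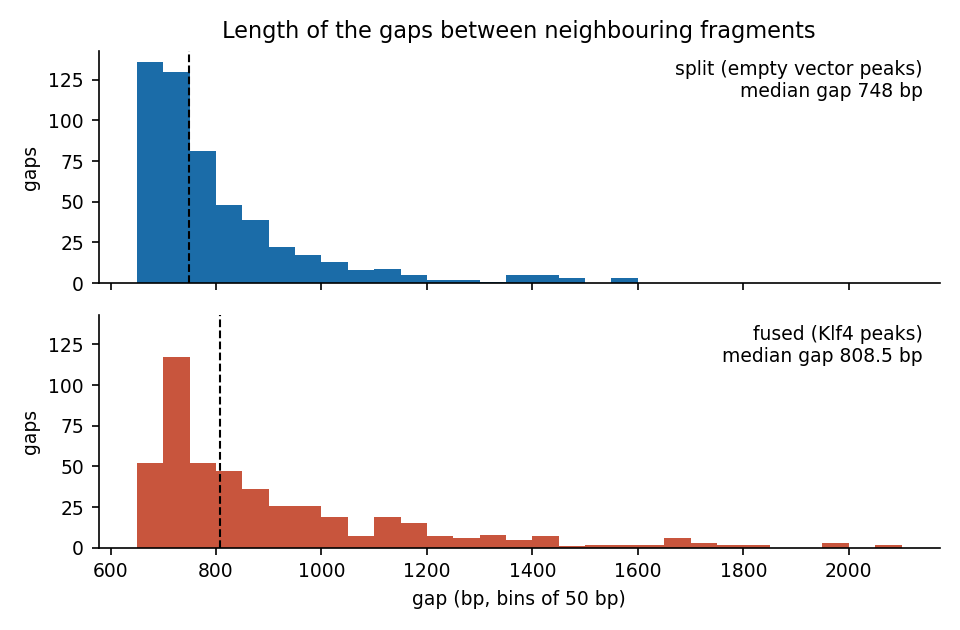
Number of gaps (vertical axis) by gap length in bp (horizontal axis, bins of 50 bp) for split regions (upper) and fused regions (lower), with the median as a dashed line at 748 and 808.5 bp. Most gaps lie just above the smallest distance between neighbours in each list, and the fused regions have the longer tail.

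Of the 5 widest gaps, 4 in the split and 2 in the fused class lay in a peak below the class median of −log10 q, 10.7 and 11.3. In the split class they were at Iglon5, an immunoglobulin-type adhesion gene (1594 bp gap in an empty vector peak of 2424 bp, fold enrichment 3.16, −log10 q 4.40), Raver2, an RNA-binding protein gene (1557 bp, −log10 q 8.36), Slmap, a tail-anchored membrane protein gene (1552 bp, 3.84), near Txnl1 (1499 bp, 28.0) and in Tpd52 (1490 bp, 3.42). In the fused class they were at Sf1, the gene of a splicing factor that recognises the branch point (2057 bp gap in a Klf4 peak of 2692 bp, fold enrichment 2.47, −log10 q 9.78), 12156 bp from Cd82, a tetraspanin gene (2050 bp, 9.57), at Ajap1 (1982 bp, 13.9), 4781 bp from Rapgef3, which encodes a cAMP-activated Rap exchange factor (1980 bp, 24.3), and in Lmo1, a LIM-only transcription cofactor gene (1954 bp, 18.1). At Iglon5 the gap made up most of the region, and its Klf4 fragments were 321 and 263 bp wide with −log10 q of 3.52 and 1.53. At Ajap1 a coding start lay inside the gap.

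The number of gaps that could be bridged differed between the lists, so neighbouring pairs were also counted. Among pairs less than 1000 bp apart, 5906 in the Klf4 list and 2705 in the empty vector list, 473 (8.01%, 7.34 to 8.73%) and 356 (13.2%, 11.9 to 14.5%) were joined by 1 peak of the other list. Where both peaks of a pair were overlapped by the other list, the shares were 24.5% of 1934 Klf4 pairs (22.6 to 26.4%) and 20.4% of 1749 empty vector pairs (18.5 to 22.3%). The order of the lists thus depended on which pairs were counted, since more Klf4 pairs included a peak with no counterpart. By gap length, 56.7% of such Klf4 pairs under 700 bp were joined (50.3 to 62.8%) against 36.6% of empty vector pairs (29.1 to 44.8%). From 1000 to 1499 bp the shares were 2.40% (1.84 to 3.13%) and 4.28% (3.51 to 5.21%), in the opposite order. The class under 700 bp starts at 663 bp in the Klf4 list and at 675 bp in the empty vector list. It is thus not alike in the 2 lists, and the part of this in the difference was not tested.

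**Figure D4:**
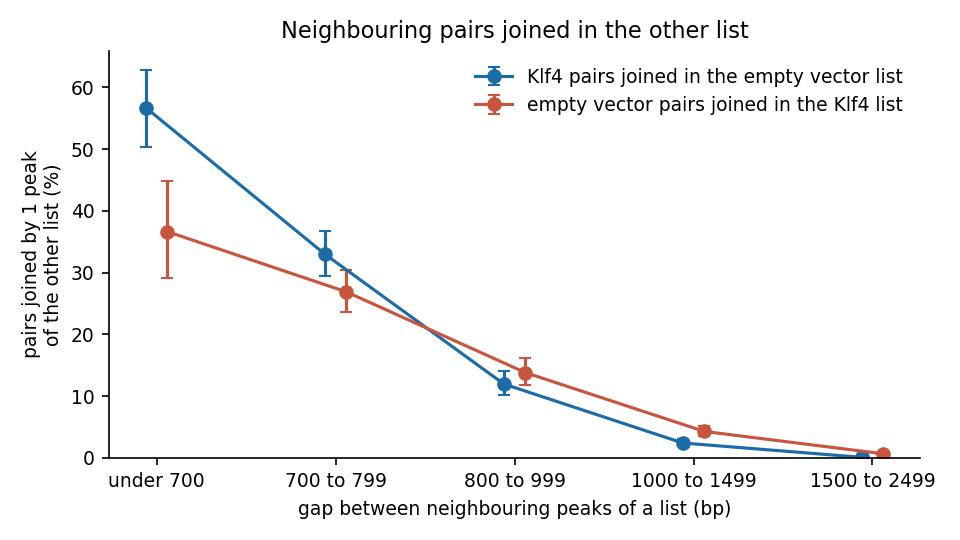
Share of neighbouring pairs joined by 1 peak of the other list (vertical axis, %) by the gap between the pair in bp, for pairs whose 2 peaks are both overlapped by the other list, with 95% Wilson intervals. Klf4 pairs are joined more often under 700 bp (56.7% against 36.6%), and empty vector pairs more often from 1000 to 1499 bp. The class under 700 bp starts at 663 bp for Klf4 pairs and at 675 bp for empty vector pairs.

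In covered length the classes were of like size. The 524 split regions covered 1005 kb in the empty vector list, of which Klf4 fragments covered 53.5%, gaps took 42.4% and uncovered flanks 4.08%. The 473 fused regions covered 1001 kb in the Klf4 list, of which empty vector fragments covered 50.8%, gaps took 43.2% and flanks 6.03%. Klf4 fragments reached outside the split regions with 17.7% of their own length, and empty vector fragments outside the fused regions with 11.3%. The lengths of bases called in 1 list and in a gap of the other were 427 kb and 432 kb. The 2 directions thus nearly balanced in bases, and the ratio of split to fused regions in number was 1.11 (95% interval 0.978 to 1.25, counting error only). That ratio fell to 0.763 when the Klf4 list was limited to as many peaks as the empty vector list, and to 0.91 when both lists were joined over gaps of up to 700 bp.

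The fragments of a region were compared by −log10 q. In split regions the stronger fragment had a median −log10 q of 13.0 and the weakest one of 4.54, and in fused regions these were 14.4 and 4.98, an order that follows from taking the highest and the lowest. The weakest fragment was below a −log10 q of 5 in 275 split regions (52.5%, 48.2 to 56.7%) and 240 fused regions (50.7%, 46.2 to 55.2%). The strongest fragment exceeded the weakest at least 10 times in −log10 q in 37 split (7.06%, 5.17 to 9.58%) and 56 fused regions (11.8%, 9.23 to 15.1%). Over all peaks, 34.6% in the Klf4 list and 33.3% in the empty vector list were below 5. These are shares of single peaks, while the weakest of 2 or more fragments is low by construction, so the shares are not alike. Taken singly, Klf4 fragments had a median −log10 q of 7.51 and empty vector fragments one of 8.72. The medians over all peaks of these lists were 7.61 and 8.82. At the edge of the definition, 5 split and 2 fused regions had a fragment that overlapped by at most 10 bp (median −log10 q of the joined peaks 7.93 and 14.7), and 2 empty vector peaks and no Klf4 peak missed membership because a second peak lay within 10 bp but did not overlap (median −log10 q 32.3).

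The 5 strongest members of each class are given next. The split region with the highest −log10 q, 604 with a fold enrichment of 4.66, was at chr14:19415722-19419402, 114298 bp from Gm2244, with Klf4 fragments of 483 and 2512 bp. Another, at chr9:3000002-3004805 (−log10 q 275), starts at the first sequenced bases of its chromosome, 330426 bp from Alkbh8. Both lie in stretches of mm10 rich in near-identical repeats, where the placement of reads is uncertain. The others were at Csnk1g2, 29878 bp from Tuba1a, an alpha tubulin gene (3075 bp, −log10 q 260), and at the start region shared by Sec23a, which encodes a COPII coat subunit of vesicles leaving the endoplasmic reticulum, and Gemin2, a gene for assembly of splicing particles (2198 bp, 179). The strongest fused regions all lay in genes: Ndel1, a dynein regulator (−log10 q 165), Larp1b, an RNA-binding protein gene (147), Ing2, a chromatin reader gene (124), Rab37, a small GTPase gene (116), and the shared start region of Actr1a, a dynactin subunit, and Sufu, an inhibitor of Hedgehog signalling (108). At Larp1b the Klf4 peak of 1742 bp joined empty vector fragments of 726 bp (fold enrichment 8.68, −log10 q 299) and 362 bp (1.93 and 8.24). At Ndel1 the fragments were 995 bp (8.24 and 253) and 210 bp (2.30 and 14.2). A strong fragment beside a weak one was also present at Rab37, with 903 bp (7.77 and 211) and 248 bp (2.25 and 13.0).

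Position in the genome was not used by the rule. Within 1 kb of a listed coding start lay 82 of 515 split regions outside chromosome 18 (15.9%, 13.0 to 19.3%) and 88 of 462 fused regions (19.05%, 15.7 to 22.9%), beside 11.3% of all empty vector and 9.92% of all Klf4 peaks. The starts listed cover 17274 of 21631 coding genes and none on chromosome 18, so these shares are lower limits. With only peaks of a −log10 q of at least 5 in both lists the shares were 26.1% and 27.2%, and at 20 or more they were 69.6% of 23 split and 37.5% of 32 fused regions, in the opposite order. Members are wide and wide peaks are often promoters, so the shares were also taken by width, with peaks that met 1 peak of the other list beside them. At 1500 to 1999 bp, 19 of 222 split regions were at a start (8.56%, 5.55 to 13.0%) against 43.8% (42.2 to 45.5%), and 18 of 160 fused regions (11.2%, 7.24 to 17.1%) against 39.1% (37.7 to 40.5%). At 2000 to 2999 bp the shares were 31.9% (24.7 to 40.1%) against 51.4% for split and 24.4% (18.5 to 31.5%) against 43.6% for fused regions. At 3000 bp or more they were 45.2% (29.2 to 62.2%) against 62.4% (52.6 to 71.2%), and 51.9% (38.7 to 64.9%) against 56.4% (49.1 to 63.4%), with overlapping intervals. From 1000 to 2999 bp, split and fused regions alike were thus less often at starts than unsplit peaks as wide. These are intervals over peaks of 1 merged list and not a test between libraries.

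**Figure D5:**
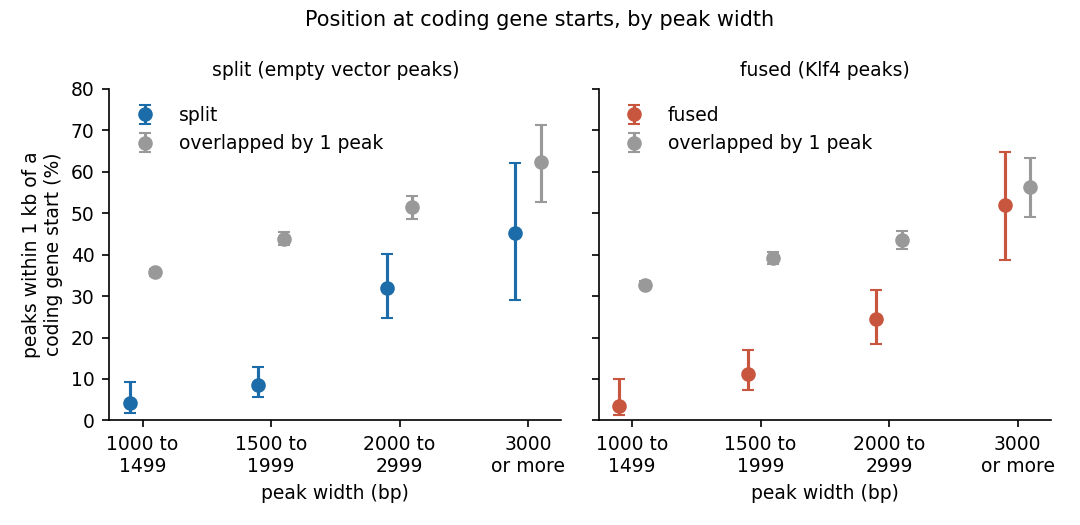
Share of peaks within 1 kb of a listed coding gene start (vertical axis, %) by peak width in bp, for split regions (left) and fused regions (right) in colour and for peaks of the same list that met exactly 1 peak of the other list in grey, with 95% Wilson intervals. Members lie below the grey points with separate intervals in the 3 classes from 1000 to 2999 bp, as at 1500 to 1999 bp (8.56% against 43.8%, and 11.2% against 39.1%).

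Strength differed with position as well. Among peaks of at least 1500 bp with −log10 q from 20 to 50, 22 of 81 split regions (27.2%, 18.7 to 37.7%) were at a start against 46.8% (44.3 to 49.3%) of peaks that met 1 peak, and 26 of 81 fused regions (32.1%, 22.9 to 42.9%) against 48.7% (46.5 to 50.8%). From 10 to 20 the shares were 13.5% (8.19 to 21.3%) against 22.5% (19.6 to 25.6%), and 19.3% (13.2 to 27.3%) against 24.0% (21.9 to 26.3%). From 5 to 10 they were 10.5% (5.82 to 18.3%) against 14.5% (11.7 to 17.9%), and 14.0% (8.35 to 22.5%) against 9.12% (7.47 to 11.1%). At 50 or more they were 63.6% (48.9 to 76.2%) against 68.0%, and 55.6% (39.6 to 70.5%) against 68.4%. Within classes of like strength the difference was thus smaller, with separate intervals from 20 to 50 in both classes, and for fused regions from 5 to 10 it lay the other way with overlapping intervals.

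Position in gene bodies was counted as well. The body of a coding gene was touched by 62.2% of split (58.0 to 66.3%) and 66.6% of fused regions (62.2 to 70.7%), beside 57.6% and 58.1% of all peaks of the respective lists and 58.8% and 58.9% of peaks that met 1 peak of the other list. The split interval included the share of peaks that met 1 peak and the fused interval lay above it, and these shares were not taken by width. Either end of a coding gene, with all coding genes counted, lay within 1 kb of 21.6% of split (18.3 to 25.3%) and 30.9% of fused regions (26.9 to 35.2%), beside 14.7% and 13.9% of all peaks. Members are wider than other peaks, and fused regions wider than split ones, so the shares at gene ends were also taken by width. At 1500 to 1999 bp, 15.2% of split (11.1 to 20.5%) and 15.9% of fused regions (11.1 to 22.2%) were at a gene end, against 49.1% and 45.6% of peaks that met 1 peak of the other list. At 2000 to 2999 bp the shares were 39.2% (31.5 to 47.3%) and 45.8% (38.4 to 53.4%), against 60% and 55.1%. At 3000 bp or more they were 38.7% (23.7 to 56.2%) and 68.5% (55.3 to 79.3%), against 67.9% and 64.9%. Split and fused regions of like width thus had overlapping intervals, which does not show that their shares are alike. At 3000 bp or more the intervals shared only the stretch from 55.3 to 56.2%, with the higher share in fused regions. From 1500 to 2999 bp members had the lower shares, with intervals separate from those of other peaks except for fused regions from 2000 to 2999 bp (52.9 to 57.2% for the others). By chromosome, split shares ran from 0.276% on chromosome 18 (0.145 to 0.524%) to 0.762% on chromosome 19 (0.504 to 1.15%), and fused shares from 0.240% on X (0.110 to 0.522%) to 0.501% on chromosome 17 (0.344 to 0.728%). The intervals of these extremes overlapped in both classes, but that of chromosome 18 was separate from that of chromosome 2 in the split class (0.723%, 0.553 to 0.944%). This pair was picked from all pairs of chromosomes, and the intervals are not adjusted for the number of pairs.

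A split and a fused region could interlock. In 8 places a Klf4 fragment of a split region was itself a fused region, so that the lists were staggered: at Lgalsl, Spry2, Adamts1, Gnaq, Atp8b2, Cntfr, Rcc2 and Speer4c. At Spry2, a feedback inhibitor of receptor tyrosine kinase signalling, the split peak chr14:105896000-105897679 overlapped the fused peak chr14:105894975-105896535. At Gnaq, which encodes the G alpha q subunit through which many hormone receptors act, they were chr19:16285426-16287062 and chr19:16286651-16288298. Speer4c belongs to a family of near-identical genes, and reads there are hard to place.

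Genes of the islet were looked up in fixed lists, counting a region in the gene or within 10 kb. Of all 21631 coding genes, 488 had a split region (2.26%) and 478 a fused region (2.21%), and 35 had both. Among 20 endocrine transcription factor genes, 4 had a split region and none a fused one. Among 23 genes of secretory granules and exocytosis, 3 had a split and 3 a fused region. Among 12 immediate early genes the counts were 1 and 2, among 16 beta cell identity genes 1 and 0, among 12 alpha cell genes 1 and 0. No region of either class lay at the 17 Kruppel-like factor genes, the 14 epithelial and cell cycle genes known as Klf4 targets, or the 12 genes of delta, acinar and duct cells. The number of peaks at the genes differed as well, with a median of 4.5 empty vector peaks at the endocrine factors and 8 at the secretory genes against 3 over all coding genes, and the part of peak number in these counts was not tested.

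Among the endocrine transcription factor genes with a split region were Foxa2, Mlxipl and St18, and Pax6 and Fev were the genes with one in the beta and alpha cell lists. At 1794 bp from Foxa2, a pioneer factor of endoderm, the peak chr2:148038341-148041083 (2743 bp, −log10 q 7.90) faced fragments of 1924 and 192 bp (6.09 and 2.38). At 1507 bp from Mlxipl, which encodes the glucose-responsive factor ChREBP, a 2616 bp peak with −log10 q 2.02 faced fragments of 1087 and 716 bp. St18, a zinc finger gene expressed in endocrine cells, had 2 split regions in its body, of 1497 and 1421 bp (−log10 q 8.31 and 3.28). At Pax6, required for islet hormone cells, the peak chr2:105680656-105683393 (2738 bp, −log10 q 6.64) faced fragments of 1545 and 496 bp (11.6 and 5.88) with 688 bp between. At 7940 bp from Fev, a serotonergic factor also found in islets, a weak 1236 bp peak (−log10 q 2.03) was split by 666 bp. The peaks named here were all below a −log10 q of 10 and thus below the median of the split regions.

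Secretory genes carried members of both classes. At Pcsk2, which encodes prohormone convertase 2, the Klf4 peak chr2:143545154-143548161 (3008 bp, fold enrichment 3.83, −log10 q 46.6) joined empty vector fragments of 1368 and 619 bp (74.8 and 20.1) across 1004 bp. Elsewhere in the same gene a 1083 bp Klf4 peak (−log10 q 3.26) was fused and a 2052 bp empty vector peak (2.37) was split, with 38 empty vector and 32 Klf4 peaks over the gene. At Abcc8, the sulfonylurea receptor subunit of the beta cell potassium channel, the Klf4 peak chr7:46179359-46182046 (2688 bp, −log10 q 11.3) joined fragments of 1301 and 501 bp (13.5 and 16.7) across 1000 bp. At 192 bp from Scg2, a granin gene, a 1423 bp Klf4 peak of −log10 q 1.99 joined fragments of 228 and 446 bp. Split regions lay in Cacna1c, a pore subunit of L-type calcium channels (1975 bp, −log10 q 40.6, fragments with 64.9 and 10.9), and in Syt7, a calcium sensor of exocytosis (2033 bp, 13.3, fragments with 10.02 and 10.7).

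The immediate early genes held some of the stronger members. At Fos, the empty vector peak chr12:85471876-85474635 (2760 bp, fold enrichment 4.38, −log10 q 128) faced Klf4 fragments of 852 and 1162 bp with −log10 q of 132 and 111, separated by 742 bp. Both fragments were strong, unlike at most members. At Junb, the Klf4 peak chr8:84976154-84980512 (4359 bp, fold enrichment 2.62, −log10 q 44.9) joined fragments of 2803 and 1526 bp (64.2 and 44.0) across 729 bp. At Fosl2, the Klf4 peak chr5:32133128-32136783 (3656 bp, −log10 q 91.4) joined fragments of 190 and 1481 bp (7.32 and 198) across 1105 bp. The products of these 3 genes form AP-1 dimers, and they were 1 split and 2 fused regions, so the class was not shared.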

How the data were processed

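ATAC-seq peaks of MIN6 cells were taken from 2 broadPeak lists, 1 per plasmid, each named as merged, with 4 libraries per plasmid in the labels. FastQC, Bowtie2, MACS2 and DiffBind, and the build mm10, are named in the submitters' processing notes. Options, versions, read filters, transposase shift and the point of merging are not given in the sources used here. The deposited fold enrichment is a ratio of signal to local background, and the deposited −log10 value is that of a q-value, both by the authors' peak caller. Whether these are means over the bases of a peak was not examined. The lists were called separately, so values are comparable only within a list, and a threshold or band applied to both is nominal. Samples were grouped by their titles.

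Peaks on sequences other than chromosomes 1 to 19 and X (215 and 227) were left out. Overlap classes, gaps between neighbouring fragments and distances to genes were computed with Python 3.11.15, numpy 2.4.6, pandas 2.3.3 and scipy 1.17.1, and figures were drawn with matplotlib 3.10.9. Shares have 95% Wilson intervals, and medians of gaps have intervals from order statistics. These intervals hold counting error alone, and peaks that lie near each other are not independent of each other. Gene positions, starts and promoter sequences are RefSeq's on GRCm38.p6, the assembly that mm10 names, and all 126 listed gene entries matched. Coordinates are 1-based. Regions were named by a rule: per class, the 5 with the most fragments, the highest −log10 q, the widest gap, and the highest −log10 q with a coding start in the gap, with the genes of the 8 lists, of which 1 is not reported here. Members, lists and rules were chosen with earlier results of these data known. For a check of the counting, a copy of the empty vector list served as both lists, with cuts planted in wide peaks. There, 200 of 200 planted splits and 150 of 150 planted fusions were found among 100049 peaks. All other peaks matched themselves, so the check does not show how counts behave with 2 separately called lists.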

Additional observations from a re-analysis of the deposited data

How the results depend on the processing

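No paired analysis was possible because each plasmid is represented by 1 merged list, with no value per library, and for the same reason no library could be left out in turn. Of 47 values under alternatives, 23 stayed within 1.5 times (counts) or the 95% interval (other values), and 24 moved. The count of split regions moved to 235 at a −log10 q of at least 5, to 335 with the Klf4 list limited to the number of empty vector peaks, to 287 with peaks of at least 300 bp, to 343 with both lists joined over gaps of up to 1000 bp, and to 23 at a −log10 q of at least 20. The count of fused regions moved to 221, 264 and 32 at 5, at 300 bp and at 20. The ratio of split to fused regions was 0.763 with the limited Klf4 list, 0.91 and 0.7 with joining over 700 and 1000 bp, and 0.719 at 20, beside the reported 1.11 (0.978 to 1.25). The share of split regions at a start was 26.1% at 5, 12.2% with joining over 1000 bp, 21.6% for either gene end and 69.6% at 20, and that of fused regions 27.2%, 30.9% and 37.5% at 5, for either gene end and at 20. The median gap of split regions was 733 bp at 5, 1109 bp with joining over 1000 bp and 719 bp at 20, and that of fused regions 1216 bp with joining and 760 bp at 20. Joining removes all gaps up to its limit by construction, and stricter thresholds leave fewer peaks; other causes were not tested. The threshold of 20 and the use of either gene end were chosen after seeing the data.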
